A study of Mus musculus with 17 samples.

Results

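The genes described here encode proteins of the centromere, the kinetochore and the chromosomal passenger complex. They are Cenpa, Cenpe, Cenpf, Knl1, Ndc80, Nuf2, Incenp, Birc5 and Cdca8, 9 of the 21887 protein-coding genes of the RefSeq table for GRCm38.p6, the assembly behind mm10. They were taken by name and all 9 were found. A gene end was counted as marked in a library when the summit of a peak lay within 500 bp of either end of the gene, and where several did, the one with the lowest p-value was described.

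The centromere is the stretch of chromosome that spindle microtubules pull on, and it is set apart by nucleosomes that carry the histone variant CENP-A. The kinetochore is built on it in mitosis: KNL1 and the NDC80 complex form its microtubule-binding face, CENP-E and CENP-F join its outer corona, and the chromosomal passenger complex (CPC) carries the Aurora B kinase that corrects wrong attachments. Genes of this kind are mostly silent in resting cells, where the DREAM complex sits at their promoters. DREAM joins the pocket protein p130 to the MuvB core, whose subunit LIN54 binds a short promoter element named the cell cycle genes homology region (CHR). STAG2 belongs to cohesin, a ring-shaped complex known for holding sister chromatids together and for forming DNA loops.

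The study profiled STAG2, LIN54 and p130 by CUT&RUN, in which an antibody directs a nuclease to a protein on chromatin and the released fragments are sequenced. The samples were peeled urothelium, the epithelial lining of the bladder, from Stag2-KO and Stag2-WT mice, all taken 1 week after TMX induction, with about 500000 cells per condition. There were 2 KO and 2 WT libraries for STAG2, 2 KO and 3 WT libraries for LIN54, and 3 KO and 3 WT libraries for p130, each labelled a biological replicate, so p-values measure the spread between these samples. STAG2 and LIN54 belonged to batch 1, p130-WT replicate 1 to batch 2 and the other 5 p130 libraries to batch 3, so p130 and its batches cannot be told apart when p130 is set against the other antibodies. The driver of recombination and the age and sex of the mice are not given in the sources used here.

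Each deposited list held 286079 to 539191 peaks, called up to a p-value of 0.05. A stricter reading kept peaks with a q-value of 0.01 or less, which is a −log10 q of at least 2, and these numbered 316 to 25859 per library. Fold is the authors' enrichment of a summit over background within 1 library, and it was not tested between genotypes. Whether folds overlapped between genotypes is described gene by gene, and the share of all genes without overlap is not given here. At the 9 genes the summits rested on 5 to 28 overlapping fragments (median 11), over backgrounds of 1.46 to 4.79 fragments, so single values carry a wide counting error. The median background over all peaks of a library was 1.51 to 2.53 fragments. In the deposited lists, 2 to 6 of 6 luminal urothelial marker genes had a peak at an end per library, as did 0 to 2 of 3 basal, 1 to 3 of 3 fibroblast, 0 to 2 of 2 smooth muscle, 0 to 2 of 2 endothelial and 0 to 1 of 2 immune markers. At q 0.01 luminal markers had 0 to 4 (0 in all 6 p130 libraries), fibroblast markers 0 to 2, smooth muscle markers 0 to 1 and the others 0, and a peak at a gene end is not expression. The X chromosome, which holds none of the 9 genes, gave 0.259% to 0.744% of the peaks of KO libraries and 0.440% to 5.98% of those of WT libraries, a difference whose part in the results was not tested.

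Of the 9 genes, 8 had a promoter in the RefSeq table (GRCm38.p6, 250 bases before to 50 after the start), and Incenp had none. A CHR (TTTGAA or TTCGAA, on either strand) was found in 5 of the 8, against 18.2% of 17492 promoters. In all 5 it was TTTGAA and lay within the first 50 bases after the start, where 2.02% of all promoters held a CHR. The 30 bases around the CHR are shown for 4 genes because they hold the letters of the element that LIN54 is known to bind. Binding to these copies was not tested. They are written 5′ to 3′ on the strand of the gene, with the CHR in capitals. The one at Ndc80 lies on the opposite strand and therefore reads TTCAAA. They are from chr5:30666890-30666919 (Cenpa, plus strand), chr1:189688067-189688096 (Cenpf, minus strand), chr2:119047138-119047167 (Knl1, plus strand) and chr17:71526811-71526840 (Ndc80, minus strand).
Cenpa: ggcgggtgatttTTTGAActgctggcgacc
Cenpf: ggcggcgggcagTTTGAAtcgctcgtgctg
Knl1: agggcggttagaTTTGAAtacttcagggac
Ndc80: gaaactttaaaaTTCAAAccgccttgggtt

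The CCAAT box (CCAAT on either strand, so also ATTGG), the element bound by NF-Y, was found in 4 of the 8 promoters, against 39.0% of all. Cdca8 held 4, Cenpa and Cenpf 2 each and Cenpe 1. None of the 8 held an E2F core as searched here (the letters TTCCCGC, with TTGGCGC, then TTCGCGC, and TTGCCGC, on either strand), against 12.2% of all promoters. In 1 promoter the CHR and a CCAAT box shared 1 base, and no other motifs overlapped. A match is a description of the sequence only. The 120 bases before the start are shown for Cdca8, the gene with the most peaks at q 0.01, and for Nuf2. The promoter of Nuf2 held none of these motifs, and its best LIN54 and p130 summits lay on opposite sides of the start. CCAAT boxes are in capitals. They are from chr4:124936918-124937037 (Cdca8, minus strand) and chr1:169531465-169531584 (Nuf2, minus strand).
Cdca8: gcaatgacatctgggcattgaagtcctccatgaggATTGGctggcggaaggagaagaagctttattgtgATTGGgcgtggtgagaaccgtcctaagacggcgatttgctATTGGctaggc
Nuf2: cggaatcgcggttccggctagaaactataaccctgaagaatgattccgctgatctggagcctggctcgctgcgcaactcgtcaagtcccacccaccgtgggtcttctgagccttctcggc

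The lists marked most of the 9 genes in most libraries when read as deposited. A peak was present in 116 of the 135 combinations of gene and library, and 45 of these passed q 0.01. Over all genes, a library marked 33.4% to 53.0% in the deposited lists and 1.07% to 29.3% at q 0.01. Cdca8 and Ndc80 were marked in all 15 libraries, which held for 1.92% of all genes, and none of the 9 passed q 0.01 in all 15 (0.142% of all genes). Incenp was marked in 14, Cenpa, Cenpf and Nuf2 in 13, Knl1 and Birc5 in 12, and Cenpe in 9. At q 0.01 Cdca8 was marked in 10 libraries, Ndc80 and Incenp in 8, Knl1 in 5, Cenpa and Cenpf in 4, Nuf2 in 3, Birc5 in 2 and Cenpe in 1. Cenpf, Ndc80, Incenp and Cdca8 each passed q 0.01 in at least 1 library of all 3 antibodies, against 3.87% of all genes.

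**Figure D1:**
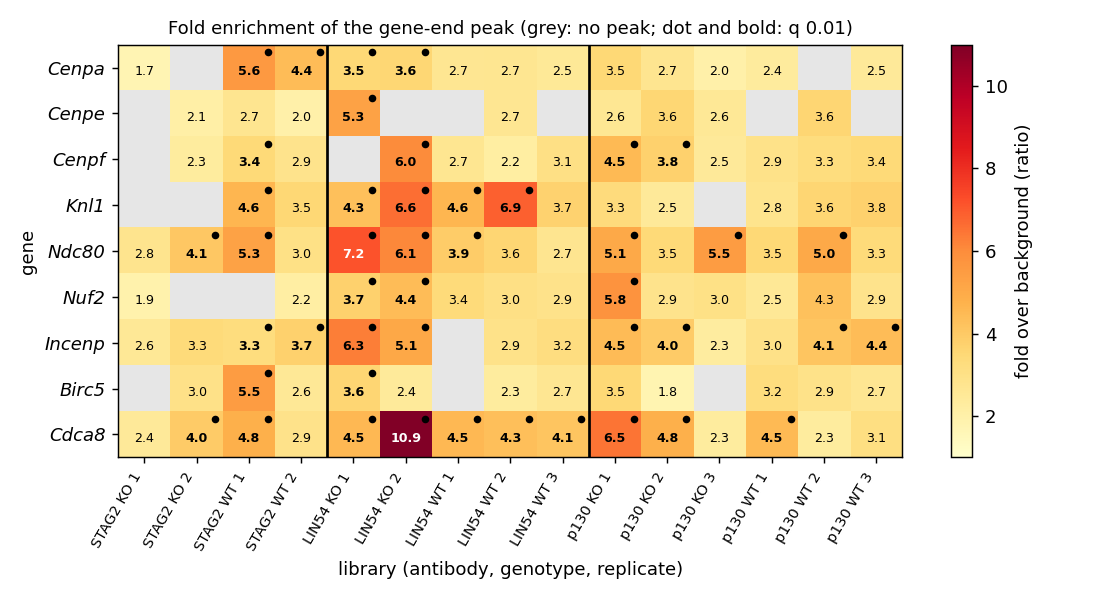
Authors' fold over background (colour and printed value, ratio) at the ends of each gene (rows) in each library (columns, KO left of WT for each antibody), with grey where there was no peak and a dot and bold type where the peak passed q 0.01. Cdca8 in LIN54-KO replicate 2, at 10.9, is the highest, and with LIN54 the KO values of Ndc80 and Incenp stand above their WT values.

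The first group is the centromere histone itself. Cenpa, on chromosome 5 from 30666877 to 30674837 on the plus strand, is the gene whose product replaces histone H3 in centromeric nucleosomes. With STAG2, its fold was 1.72 in KO replicate 1 (−log10 q 0.00) with no peak in KO replicate 2, against 5.57 and 4.43 in the WT libraries (−log10 q 7.29 and 3.49). With LIN54, its folds were 3.49 and 3.55 in KO (−log10 q 2.45 and 2.09), against 2.65, 2.70 and 2.52 in WT (−log10 q 0.49, 0.58 and 0.12). The 2 genotypes did not overlap in either antibody, WT being higher with STAG2 and KO with LIN54, and the lowest LIN54-WT value came from the far end of the gene. With p130, Cenpa had folds of 3.48, 2.72 and 2.01 in KO, against 2.36, no peak and 2.48 in WT, so that the groups overlapped and none passed q 0.01.

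Cenpe and Cenpf make up the corona. Cenpe, a kinesin motor that carries chromosomes along microtubules, lies on chromosome 3 from 135212563 to 135273540 on the plus strand. Only LIN54-KO replicate 1 passed q 0.01 there, with a fold of 5.28 (−log10 q 5.21), and there was no peak in KO replicate 2, against a fold of 2.68 in WT replicate 2 and no peak in WT replicates 1 and 3. The STAG2 libraries gave no peak in KO replicate 1 and a fold of 2.08 in KO replicate 2, against 2.74 and 2.01 in WT, the last at the far end. With p130, Cenpe had folds of 2.61, 3.55 and 2.55 in KO (the last at the far end), against no peak, 3.61 and no peak in WT. Counting either end, Cenpe was therefore marked in 3 of 3 p130-KO and 1 of 3 p130-WT libraries at the deposited level, and its highest p130 fold was in a WT library.

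Cenpf, a large coiled-coil protein that links the kinetochore to dynein, lies on chromosome 1 from 189640606 to 189688107 on the minus strand. Its p130 folds were 4.49, 3.77 and 2.47 in KO (−log10 q 4.65, 2.82 and 0.16), against 2.94, 3.26 and 3.43 in WT (−log10 q 0.72, 0.95 and 1.29). KO held both the highest values and the lowest one, so the groups overlapped. With LIN54, it had no peak in KO replicate 1 and a fold of 6.03 in KO replicate 2 (−log10 q 7.28), against 2.69, 2.18 and 3.07 in WT. With STAG2, there was no peak in KO replicate 1 and a fold of 2.29 in KO replicate 2, against 3.43 and 2.87 in WT, of which only WT replicate 1 passed q 0.01 (−log10 q 2.71). The STAG2 folds did not overlap between genotypes, and the LIN54-KO peak stood above the WT ones.

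Knl1, Ndc80 and Nuf2 encode the outer kinetochore. Knl1, the scaffold that recruits the spindle checkpoint proteins BUB1 and BUBR1, lies on chromosome 2 from 119047119 to 119110497 on the plus strand. With STAG2 it had no peak in either KO library, against folds of 4.62 and 3.51 in WT (−log10 q 4.20 and 1.47). With LIN54, the folds were 4.31 and 6.59 in KO (−log10 q 4.0 and 13.04), against 4.59, 6.90 and 3.73 in WT (−log10 q 3.09, 8.25 and 1.15). The LIN54 groups overlapped, and Knl1 and Cdca8 were the 2 genes at which more than 1 LIN54-WT library passed q 0.01. The tRNA gene n-TSgct7 lies 288 bp from the start of Knl1 at its nearer end. No p130 library passed q 0.01 at Knl1, with folds of 3.32, 2.47 and no peak in KO, against 2.80, 3.60 and 3.76 in WT.

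Ndc80, the subunit that gives the microtubule-binding NDC80 complex its name, lies on chromosome 17 from 71496100 to 71526857 on the minus strand, with an end of Spdya 38 bp away. With LIN54, its folds were 7.16 and 6.09 in KO (−log10 q 9.94 and 7.04), against 3.91, 3.60 and 2.73 in WT (−log10 q 2.14, 1.34 and 0.25). Both KO values stood above all 3 WT values. With p130, the folds were 5.06, 3.46 and 5.48 in KO (−log10 q 3.30, 0.51 and 4.21), against 3.49, 5.05 and 3.35 in WT (−log10 q 0.55, 4.01 and 0.43). With STAG2, they were 2.79 and 4.05 in KO (−log10 q 0.27 and 2.58), against 5.28 and 3.00 in WT (−log10 q 5.64 and 0.89). The genotypes overlapped with both of these antibodies. A summit between Ndc80 and Spdya counts for both genes.

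Nuf2, the partner of NDC80 within the same complex, lies on chromosome 1 from 169497934 to 169531464 on the minus strand. Its LIN54 folds were 3.74 and 4.44 in KO (−log10 q 3.06 and 4.93), against 3.37, 3.04 and 2.91 in WT (−log10 q 1.09, 0.66 and 0.51). KO stood above WT without overlap, as at Ndc80. With p130, Nuf2 had folds of 5.80, 2.86 and 3.01 in KO, against 2.54, 4.26 and 2.86 in WT, and only KO replicate 1 passed q 0.01 (−log10 q 6.76). STAG2 gave a fold of 1.93 and no peak in KO, against no peak and 2.17 in WT, the last at the far end of the gene, and this was the lowest maximum of the 9 with that antibody. An end of the lncRNA Gm34624 lies 113 bp from the start of Nuf2, so summits there can lie near both genes.

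Incenp, Birc5 and Cdca8 are the scaffold and the 2 targeting subunits of the CPC. Incenp, which binds and activates Aurora B, lies on chromosome 19 from 9872295 to 9899489, and since its strand is not in the table its ends are named by coordinate. All 14 of its best summits were at the higher end. An end of the lncRNA Gm50340 lies 189 bp from it, so these summits can lie near both genes. With STAG2, the folds were 2.56 and 3.35 in KO (−log10 q 0.18 and 1.47), against 3.26 and 3.75 in WT (−log10 q 2.75 and 2.30). With LIN54, they were 6.28 and 5.08 in KO (−log10 q 9.27 and 4.86), against no peak, 2.94 and 3.19 in WT (−log10 q 0.66 and 1.43 where there was one). The STAG2 folds overlapped between genotypes although only the WT libraries passed q 0.01, while the LIN54 folds did not overlap. With p130, the folds were 4.45, 3.95 and 2.27 in KO (−log10 q 4.0, 2.02 and 0.07), against 2.98, 4.13 and 4.42 in WT (−log10 q 0.40, 2.56 and 3.19), with 2 libraries of each genotype past q 0.01.

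Birc5, which encodes survivin, the subunit that reads phosphorylated histone H3 at the inner centromere, lies on chromosome 11 from 117849237 to 117855743 on the plus strand. With STAG2, it had no peak in KO replicate 1 and a fold of 2.97 in KO replicate 2, against 5.46 and 2.56 in WT (−log10 q 6.19 and 0.44). With LIN54, the folds were 3.59 and 2.44 in KO (−log10 q 2.21 and 0.32, the second at the far end), against no peak, 2.32 and 2.66 in WT. The groups overlapped in both. With p130 no library passed q 0.01, with folds of 3.48, 1.78 and no peak in KO, against 3.24, 2.94 and 2.65 in WT.

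Cdca8, which encodes borealin, the subunit that binds centromeric nucleosomes beside survivin, lies on chromosome 4 from 124918465 to 124936917 on the minus strand. With LIN54, the folds were 4.52 and 10.9 in KO (−log10 q 3.56 and 20.51), against 4.53, 4.33 and 4.13 in WT (−log10 q 4.32, 3.83 and 3.23). It was the only one of the 9 to pass q 0.01 in all 5 LIN54 libraries, and KO replicate 2, with 27 fragments at its summit, stood apart while KO replicate 1 lay among the WT values. With p130, the folds were 6.48, 4.80 and 2.29 in KO (−log10 q 6.78, 2.84 and 0.06, the last at the far end), against 4.51, 2.32 and 3.12 in WT (−log10 q 3.50, 0.14 and 0.47). With STAG2, they were 2.45 and 3.96 in KO (−log10 q 0.11 and 2.43), against 4.80 and 2.88 in WT (−log10 q 6.28 and 0.87). Both of these antibodies gave overlapping genotypes. An end of 9930104L06Rik lies 67 bp from the start of Cdca8 and one of Epha10 664 bp from its far end, so summits there can count for these genes too.

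**Figure D2:**
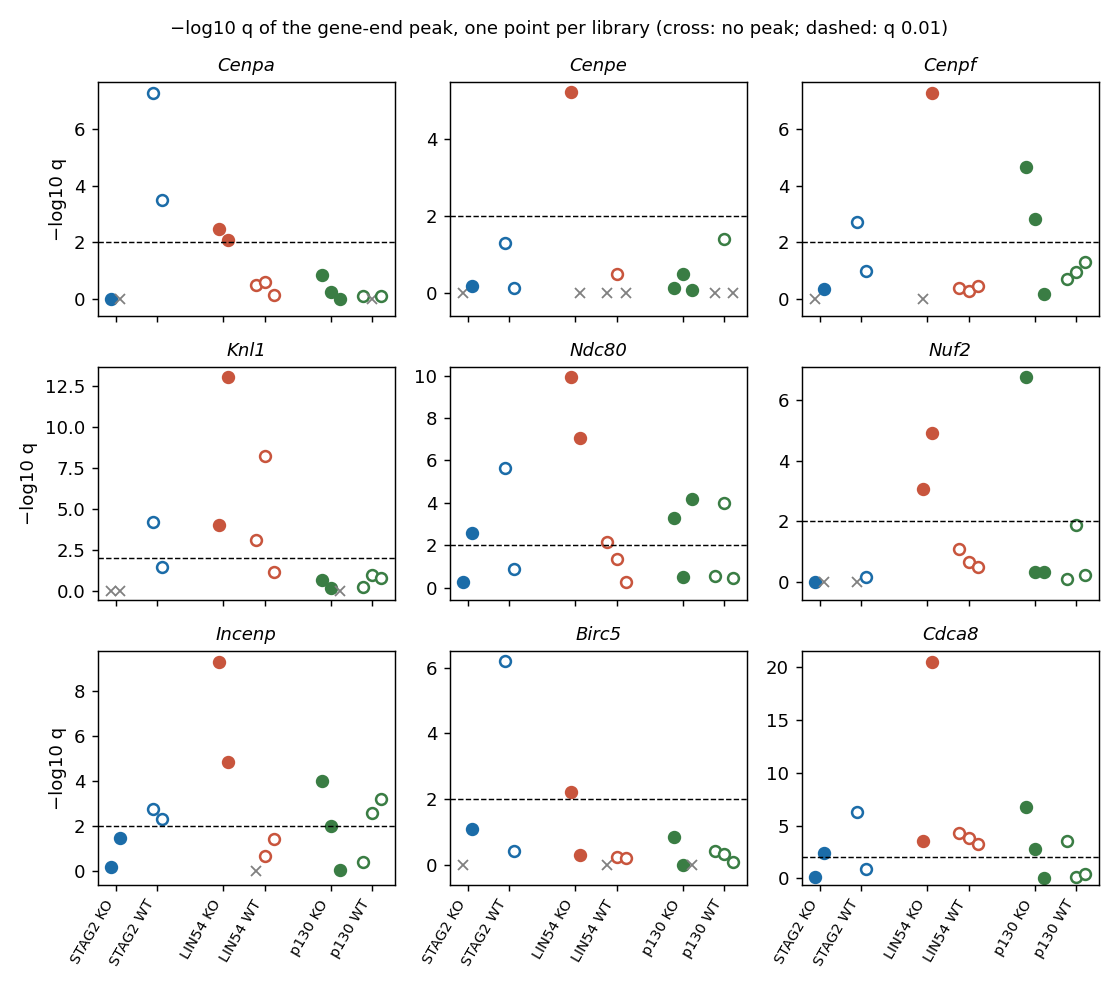
−log10 q (vertical axis) of the best summit at each gene, one point per library, KO left of WT for each antibody, with a line at −log10 q 2. With LIN54, Cenpa, Nuf2 and Incenp have both KO points above the line and all WT points below it.

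LIN54 marked more of the 9 genes at q 0.01 in KO than in WT urothelium. The KO libraries marked 8 and 7 of the 9 (all genes 21.6% and 20.0%), against 3, 2 and 1 in WT (all genes 10.4%, 13.1% and 6.77%), which is 7.5 ± 0.707 against 2.0 ± 1.0 genes (SD, n = 2 and 3). In every KO library 6 genes were marked (Cenpa, Ndc80, Nuf2, Knl1, Incenp and Cdca8; all genes 15.8%), and in every WT library Cdca8 alone (all genes 4.71%). Cenpa, Nuf2 and Incenp were marked in every KO and no WT library (all genes 3.99%), and none the other way round (all genes 0.0183%). The exact two-sided permutation test over libraries could give no p below 0.1 with 2 against 3 libraries. No gene of the 21887 could therefore have p under 0.05, before or after adjustment. No p is given for these 3, which were picked on the same values. The LIN54-KO lists also held 15787 and 13044 peaks at q 0.01, against 4903, 6617 and 2166 in WT, and with every list cut to its 20000 best peaks the difference was 3.83 genes in place of 5.5 and 1 gene in place of 3 was marked in every KO and no WT library. With a 250 bp window the difference was 2 genes and the count for KO alone 1. Without KO replicate 2 this last count was 5, and without WT replicate 3 the count for every WT library was 2. Read as deposited, the genotypes were close, with 8 and 8 genes in KO (all genes 47.5% and 49.6%), against 6, 9 and 8 in WT (all genes 47.2%, 49.4% and 45.3%). Every KO library then marked all but Cenpe and Cenpf (7 genes, all genes 35.5%), and every WT library all but Cenpe, Incenp and Birc5 (6 genes, all genes 23.8%), with 0 genes in KO alone (all genes 2.04%) and 0 in WT alone (all genes 1.38%).

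STAG2 marked fewer of the 9 on average in KO, where the antibody's target gene was deleted. At q 0.01, KO libraries marked 0 and 2 genes (all genes 2.36% and 9.93%), against 7 and 2 in WT (all genes 29.3% and 17.4%), which is 1.0 ± 1.41 against 4.5 ± 3.54 genes (SD, n = 2 each). The difference of −3.5 was −1 without WT replicate 1 and −6 without WT replicate 2. The 2 marked in KO replicate 2 were Ndc80 and Cdca8. No gene was marked in every KO library (all genes 1.90%), and Cenpa and Incenp were marked in every WT library (all genes 12.6%) and in no KO library (all genes 6.19%). With 2 against 2 libraries the exact two-sided permutation test could give no p below 0.33, and none is given for these 2 picked genes. The genotypes overlapped, and without KO replicate 1 the count for every KO library was 2, while without WT replicate 2 the count for every WT library was 7 and that for WT alone 5. The KO lists held 1239 and 6777 peaks at q 0.01, against 25859 and 13346 in WT. In the deposited lists 5 and 6 genes were marked in KO (all genes 38.7% and 46.2%), against 8 and 9 in WT (all genes 50.7% and 53.0%), with Ndc80, Incenp and Cdca8 in every KO library (3 genes, all genes 25.5%) and all but Nuf2 in every WT library (8 genes, all genes 35.0%). No gene was marked in KO alone in the deposited lists (all genes 2.03%) or at q 0.01 (all genes 0.0320%), and Knl1 was marked in every WT and no KO library (all genes 6.44%), a count of 1 that was 2 without KO replicate 1 and 4 without KO replicate 2.

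p130 marked 5 of the 9 at q 0.01 in at least 1 library (Cenpf, Ndc80, Nuf2, Incenp and Cdca8), against 4.57% of all genes. KO libraries marked 5, 3 and 1 (all genes 2.12%, 1.07% and 1.11%), against 1, 2 and 1 in WT (all genes 1.20%, 3.23% and 1.57%), which is 3.0 ± 2.0 against 1.33 ± 0.577 genes (SD, n = 3 each). The difference of 1.67 was 0 with the 20000 best peaks of each list, 0.67 without KO replicate 1 and 2.67 without KO replicate 3. The genotypes overlapped, and no gene of the 9 passed in every library of either genotype (all genes 0.681% in KO and 0.758% in WT) or separated them (all genes 0.00457% for KO alone and 0.0228% for WT alone). KO replicate 1 marked the most, with Cdca8 ranked 213, Nuf2 216, Cenpf 262, Incenp 301 and Ndc80 345 among all genes of that library by p-value. Read as deposited, p130 marked 9, 9 and 7 genes in KO (all genes 34.4%, 35.7% and 33.4%), against 8, 8 and 8 in WT (all genes 44.9%, 46.6% and 38.0%). Every KO library marked all but Knl1 and Birc5 (7 genes, all genes 8.88%), and every WT library all but Cenpa and Cenpe (7 genes, all genes 14.3%), with 0 genes in KO alone (all genes 0.854%) and 0 in WT alone (all genes 2.42%). At q 0.01, leaving out KO replicate 3 gave a count of 3 for every KO library and 1 for KO alone. Leaving out KO replicate 2 gave a q 0.01 count of 1 for every KO library. Within batch 3 alone, WT marked 2 and 1 genes at q 0.01, and batch 2 held 1 WT library only.

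**Figure D3:**
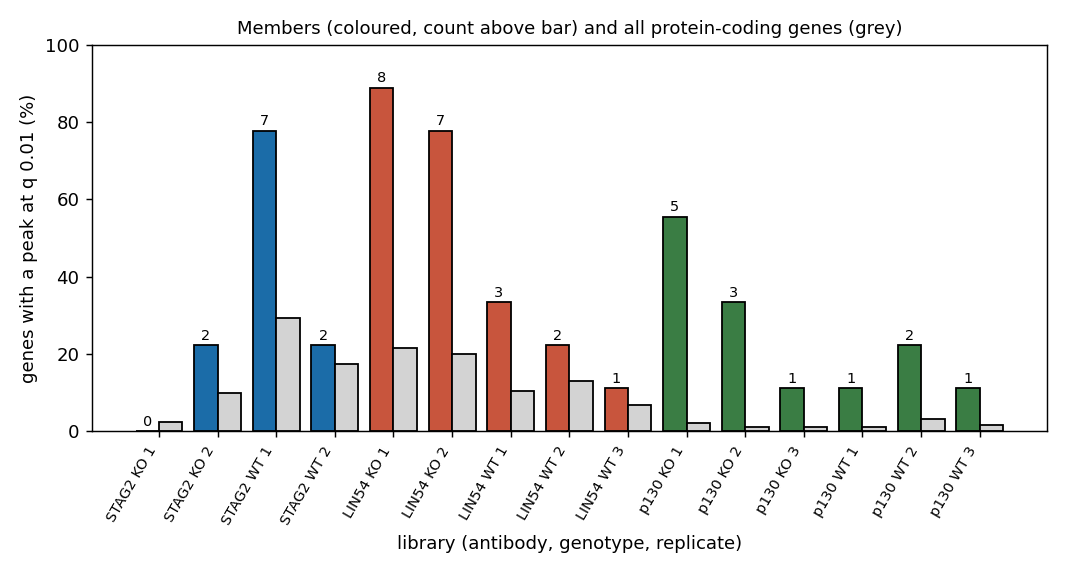
Share of the 9 genes (coloured bars, count above) and of all 21887 genes (grey bars) with a peak at an end at q 0.01 (vertical axis, percent), by library, KO left of WT for each antibody. Both LIN54-KO libraries, with 8 and 7 genes, stand above the 3 WT libraries with 3, 2 and 1.

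The summits lay at the starts of the genes. Of the 116 best summits, 96 were at the start, 14 at the higher end of Incenp and 6 at the far end. Of the 45 past q 0.01 none was at a known far end. The same split over all genes is not given here. Windows of the same size around the middle of the 9 genes held a peak at 0 to 4 genes per library in the deposited lists (all genes 12.5% to 22.4%) and at none at q 0.01 in any of the 15 libraries (all genes 0.0183% to 2.36%). Positions below are in bp from the start of the gene, negative before it. Motifs were placed by the promoter start, which differs from the gene start at 2 of the 8 genes with a promoter. It is 30666886 in place of 30666877 at Cenpa, and 189688086 in place of 189688107 at Cenpf. Distances between summit and CHR were taken from coordinates.

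The best LIN54 summit of a gene and library lay before the start wherever it was at a start, in all 5 libraries. Over all genes with a start summit, 58.3% and 58.6% had it before the start in KO, against 60%, 58.4% and 59.2% in WT. Weaker summits after the start were present at Nuf2 in KO replicate 1 and at Cenpa in KO replicate 2. The library medians over the genes with such a summit were −212 and −215 in KO, against −177.5, −151.5 and −60 in WT, and the medians over all genes of the same libraries were −58 and −56 in KO, against −65, −62 and −47 in WT. At Cdca8 the best LIN54 summits were tight, at −78 and −59 in KO, against −84, −44 and −53 in WT. At Nuf2 they lay at −212 and −260 in KO, against −207, −258 and −56 in WT. Ndc80 had them at −330 and −343 in KO, against −136, −283 and −64 in WT, so that its KO summits were the farther ones. The strongest of all, LIN54-KO replicate 2 at Cdca8, had its summit at 124936976 on chromosome 4.

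The p130 medians, over the genes with a start summit in each library, were −51, 88.5 and −66.5 in KO, against 37, −32 and −54 in WT, with −36, −13 and −23 in KO and −30, −32 and −15 in WT over all genes. At Nuf2 the best p130 summits of all 6 libraries lay after the start, at 170, 113 and 190 in KO, against 168, 133 and 78 in WT. A weaker p130 summit lay before the start of Nuf2 in KO replicate 2, at −305 (fold 2.42). Cenpf had its best p130 summits at −74, −41 and −44 in KO, against −10, −78 and −54 in WT. Within each of these genes the KO and WT positions overlapped.

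**Figure D4:**
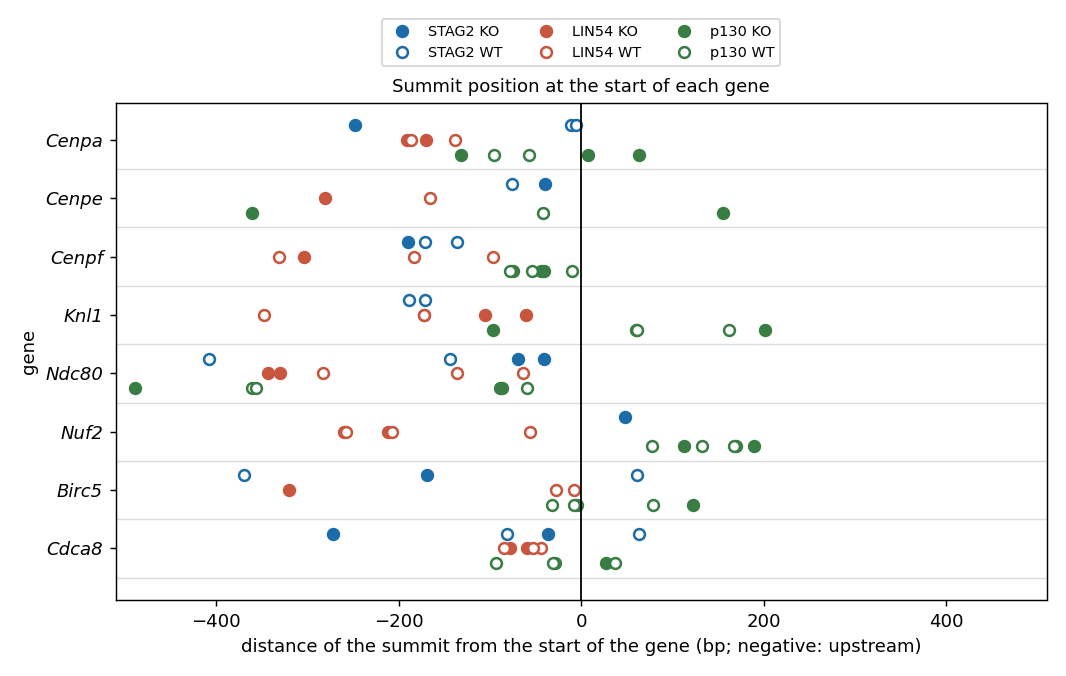
Position of the best summit relative to the gene start (bp, negative before the start), one point per library, by antibody and genotype with KO first, for the genes with known strand. At Nuf2 the LIN54 points lie at −260 to −56 and the p130 points at 78 to 190.

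The distance between the antibodies was tested gene by gene over libraries of both genotypes, a test chosen after the values were seen. Of 1736 genes with a start summit in at least 4 libraries of each antibody, 280 (16.1%) had an exact two-sided permutation p under 0.05 and none passed after Benjamini-Hochberg adjustment (smallest adjusted p 0.165), with p130 lying 22.1 bp downstream of LIN54 at the median gene. Nuf2 had its p130 summits at 142 ± 41.9 (SD, n = 6) and its LIN54 summits at −198.6 ± 83.5 (SD, n = 5), 340.6 bp apart. Its exact p = 0.00216 (adjusted p = 0.165) is the smallest that 6 against 5 libraries allow. Such a p cannot pass adjustment over 1736 genes unless many genes share it, so that none passed decides nothing. Cenpf had 178.3 bp (n = 6 and 4, exact p = 0.00476, adjusted p = 0.165) and Cenpa 128.9 bp (n = 5 and 4, exact p = 0.0159, adjusted p = 0.215). The smallest possible p depends on the number of libraries with a summit, so p does not rank these genes. In Nuf2, Cenpf and Cenpa the ranges did not overlap, and the share of the tested genes for which this held is not given here. At Knl1 the means were 248.8 bp apart with overlapping ranges (exact p = 0.0159, adjusted p = 0.215). At Cdca8 they were 46.0 bp apart (exact p = 0.103, adjusted p = 0.407), and at Ndc80 the difference was −8.97 bp (exact p = 0.922, adjusted p = 0.980). At the 5 genes with a CHR after the start, the median distance between summit and CHR was 90.5 bp for p130 (27 summits), 197.5 bp for LIN54 (23 summits) and 168.5 bp for STAG2 (16 summits), pooled over genes with unequal numbers. The order differed by gene, with p130 at 84.5 bp and STAG2 at 38.5 bp at Cenpa, and p130 at 254.0 bp and STAG2 at 138.0 bp at Ndc80.

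The other 44 genes of a longer list of centromere, kinetochore and CPC genes were read the same way. With LIN54 at q 0.01, 21 of the 44 were marked in every KO library (all genes 15.8%) and 4 in every WT library (all genes 4.71%). Bub1, Spc24 and Zwint were marked in every KO and no WT library (all genes 3.99%). With STAG2, 1 (Ska2) was marked in every KO library (all genes 1.90%) and 11 in every WT library (all genes 12.6%). Spc24, Cenpk, Cenpl, Cenpt, Cenpu, Cenps and Cenpx were marked in every WT and no KO library (all genes 6.19%). With p130, 2 (Mis12 and Ska2) were marked in every KO library (all genes 0.681%) and 3 (Cenpc1, Oip5 and Ska2) in every WT library (all genes 0.758%). Mean folds were ranked among those of the 44 that no library of an antibody left without a peak (13 genes with STAG2, 23 with LIN54 and 17 with p130). Means and SDs were taken over KO and WT libraries together, so an SD also holds any difference between genotypes. Cenpc1 (4.80 ± 2.11), Ska2 (4.24 ± 1.18) and Cenpo (4.04 ± 2.04) led with STAG2 (SD, n = 4). Ska2 (14.98 ± 9.10), Mis12 (8.28 ± 3.63) and Cenpq (6.03 ± 3.90) led with LIN54 (SD, n = 5), and Ska2 (5.40 ± 1.68), Cenpc1 (4.84 ± 1.15) and Mis12 (4.65 ± 1.20) with p130 (SD, n = 6). The backgrounds are the shares of all genes given above for the same counts. Ska2, a subunit of the SKA complex that couples kinetochores to shrinking microtubules, had the highest LIN54 folds of the list, 25.2 and 24.6 in KO, against 9.73, 7.36 and 8.01 in WT, with no overlap. Cdca8, the highest of the 9, reached 10.9.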

How the data were processed

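The 15 peak lists, 1 per library, were read. Per the submitters' processing notes, reads were handled with bcl2fastq, Bowtie2 and MACS2 on mm10. Versions, settings and whether a control entered the calls are not given in the sources used here, and 2 control samples were not used. Each deposited list is a narrowPeak file whose values the authors' peak caller wrote: fold enrichment (a ratio), the deposited −log10 p-value and −log10 q-value, and a deposited score that was not used. Peaks were called per library, so fold and q follow each library's depth and were used only to describe, rank and filter.

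Summits were matched to gene ends (RefSeq, GRCm38.p6) within 500 bp with Python 3.11.15, pandas 2.3.3, NumPy 2.4.6 and SciPy 1.17.1. Fragment counts at summits were recovered from fold and p-value, whole for 99.99% or more of the peaks of every library within a tolerance of 0.0002 on the log10 scale. Genotypes were compared by whether a gene was marked per library, with two-sided exact permutation tests adjusted by Benjamini-Hochberg over 21887 genes. The matching was tested on simulated data. Total reads per library are unknown. All 9 genes were named. Of the 44 others, those marked in every library of 1 genotype and none of the other were named, with, per antibody, the 3 of highest mean fold among those with a peak in every library. The genes and lists were chosen with earlier results of these data known. Other windows, thresholds, the start alone, libraries left out, batch 3 alone and replicate number as a block were tried. The sequence around 1 CHR is not reported here.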

Additional observations from a re-analysis of the deposited data

Results flagged for a closer look

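Cenpa and Incenp were singled out because their genotype difference ran opposite ways with 2 antibodies. With LIN54, the share of libraries with a peak at q 0.01 was 1.0 higher in KO than in WT for Cenpa, and likewise 1.0 higher for Incenp. With STAG2, the difference was −1.0 for both genes. Of all genes, 151 (0.690%) showed the pattern. An exact permutation test of the difference gave 0 of 21887 genes with an adjusted p under 0.05. Its 60 arrangements were too few to pass adjustment over that many genes unless very many shared the pattern, so this count decides nothing. No p is given for these 2 because they were picked on the same values. With −log10 q of at least 5, 0 genes of the 9 were marked by STAG2 in WT alone, so neither kept the pattern. With the 20000 best peaks 1 gene was marked by STAG2 in WT alone and 1 by LIN54 in KO alone, and with a 250 bp window 1 by LIN54 in KO alone, so at most 1 of them could keep it.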

How the results depend on the processing

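The cause of these changes was not tested. The mean number of genes marked per library, KO minus WT, changed sign in the deposited lists: with LIN54 it was 0.33 and became −1 with a 250 bp window and −0.17 with the start alone, and with p130 it was 0.33 and became −0.33 with the start alone. With STAG2 (−3) it was −1.5 with 1000 bp and −2 with the start alone. At q 0.01 with LIN54 (5.5) it was 2 with 250 bp, 4.5 with the start alone, 3.17 with −log10 q of at least 5 and 3.83 with the 20000 best peaks. With STAG2 (−3.5) it ranged from −4.5 to −2 over these settings and the 1000 bp window, and with p130 (1.67) from 0 with the 20000 best peaks to 1.67.

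For genes marked in every library, deposited, a 250 bp window gave 1 for STAG2-KO, 4 for LIN54-KO and 2 for LIN54-WT, a 1000 bp window 6 for STAG2-KO, and the start alone 4 for p130-KO. At q 0.01, 250 bp gave 3 for LIN54-KO, the start alone 1 for STAG2-WT, −log10 q of at least 5 gave 1 for LIN54-KO, 0 for LIN54-WT and 0 for STAG2-WT, the 20000 best peaks 2 for LIN54-WT, 2 for p130-KO and 3 for p130-WT, and batch 3 alone 1 for p130-WT. For genes marked in 1 genotype alone, STAG2-WT deposited gave 2 with 250 bp and 0 with 1000 bp. At q 0.01 STAG2-WT gave 1 with the start alone, 0 with −log10 q of at least 5 and 1 with the 20000 best peaks, and LIN54-KO gave 1 with 250 bp, 1 with −log10 q of at least 5 and 1 with the 20000 best peaks.

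Leaving out 1 library, the LIN54 deposited difference ranged from −0.5 (without WT replicate 1) to 1, and the q 0.01 difference from −6 to −1 for STAG2 and from 0.67 to 2.67 for p130. Deposited, the every-library count of STAG2-KO ranged from 3 to 6, and the counts for 1 genotype alone from 1 to 4 for STAG2-WT, 0 to 1 for LIN54-WT (1 without KO replicate 2) and 0 to 1 for p130-KO (1 without WT replicate 2). At q 0.01, every-library counts ranged from 0 to 2 for STAG2-KO, 2 to 7 for STAG2-WT, 1 to 2 for LIN54-WT, 0 to 3 for p130-KO and 0 to 1 for p130-WT (1 without replicate 1), and counts for 1 genotype alone from 2 to 5 for STAG2-WT, 3 to 5 for LIN54-KO and 0 to 1 for p130-KO. With the replicate block the q 0.01 differences were −3.5 for STAG2, 5 for LIN54 and 1.67 for p130. No gene could pass the exact test in any setting, so it says nothing about stability. The labels do not say that replicate numbers mark shared animals. Summits of 5 to 28 fragments limit every value, and Incenp drops out where the start alone was read.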
